A study of Mus musculus with 45 samples.

Results

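The comparison set 3 primary tumors of 4T07 cells against 3 polycaprolactone scaffolds taken from mice that carried 4T07 tumors, 6 of the 45 libraries of the series, and asked how the inoculated tumor and the engineered niche placed at a distance from it differed in gene expression. All groups were female Balb/c mice without a stated genetic change. 4T07 is an invasive mouse breast cancer line whose cells reach distant tissue without growing out there, and it comes from the same BALB/cfC3H tumor as 67NR, which stays local, and 4T1, which metastasizes. A porous scaffold was placed under the skin of the back of young adult mice before the cancer cells were inoculated into a mammary fat pad, and both tissues were taken on day 14 after inoculation. Control scaffolds came from mice with no tumor. Groups had 3 libraries each, numbered here in the order of the labels, and a number does not link a tumor to a scaffold, so the samples were treated as unpaired. Each group rests on a single cell line.

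A polymer implanted under the skin is met by the foreign body response, in which macrophages gather on the surface, take up debris and lipid, and fuse into giant cells that share proteases and acid-secreting pumps with osteoclasts, while fibroblasts lay down collagen around the material. An orthotopic carcinoma holds dividing cancer cells beside recruited myeloid cells, lymphocytes, fibroblasts and vessels, and its poorly perfused parts switch on genes of the hypoxia response. Because RNA was taken from whole tissue, fewer cells of a type and less RNA per cell cannot be told apart.

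Levels are given as CPM, the counts of a gene per 1000000 counts of its library, listed in the order of replicates 1, 2 and 3. Tumors held 4982800, 5511691 and 3543303 counts and scaffolds 8175380, 5087455 and 6438184. A difference was called where edgeR's quasi-likelihood test gave an adjusted p under 0.05 and a fold over 2, and differences are log2 of tumor over scaffold, so that values below 0 are higher in scaffolds. Tumor 1 and scaffold 1 stood apart by their blood cell genes. The 7 erythroid markers summed to 22320.2, 5634 and 4647 CPM in the tumors and 25212, 6893 and 3132 CPM in the scaffolds, and the 15 neutrophil markers to 5615, 2091 and 1262 and 9692, 3457 and 2976 CPM. In both tissues the first replicate was the highest, and the groups overlapped. Control scaffolds summed to 2193, 1789.7 and 1891 CPM for the erythroid and 973, 3182 and 1184 CPM for the neutrophil markers.

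Of 20187 genes with more than 10 counts over the 6 libraries, 2273 (11.3%) were higher in the tumors and 2028 (10%) were higher in the scaffolds. Genes with all 3 tumors above all 3 scaffolds made up 28.8% of those tested, and genes with all 3 scaffolds above all 3 tumors 19%. The genes called higher in tumors took 15.6% of tumor counts and 4.51% of scaffold counts, and those called higher in scaffolds took 22.3% of scaffold counts and 6.92% of tumor counts. A fold over 8 was reached by 434 of the former and 343 of the latter. The median log2 difference over all genes was 0.05. With library totals as the sole scaling, that median moved by 0.139 and the calls were 2773 higher in tumors and 1642 higher in scaffolds, 62.8% against 52.8% of calls on the tumor side.

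**Figure D1:**
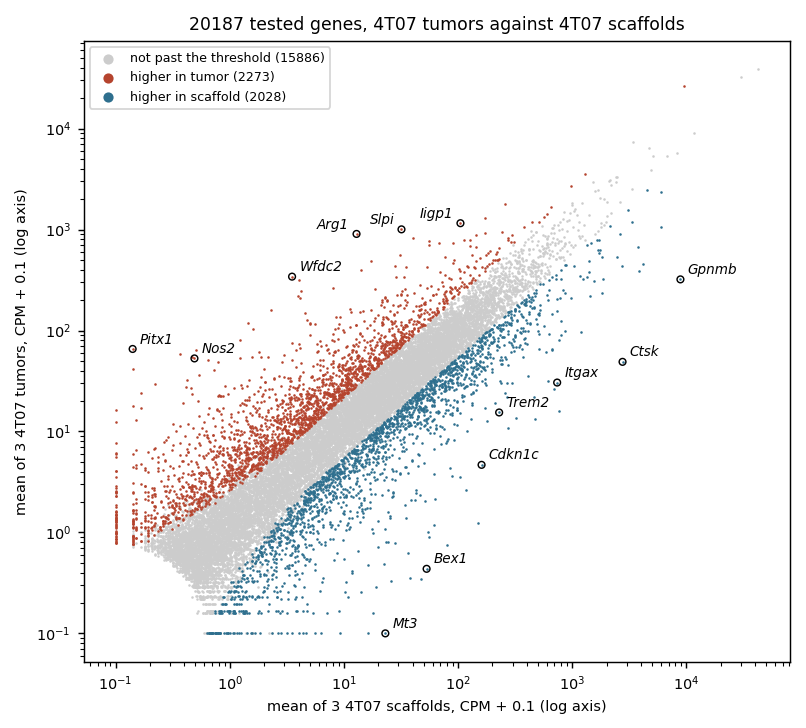
Mean CPM plus 0.1 of each of 20187 genes in the 3 scaffolds (horizontal, log axis) and the 3 tumors (vertical, log axis), 1 point a gene, colored by the call. Arg1, Pitx1 and Wfdc2 lie far above the diagonal, and Gpnmb, Ctsk, Bex1 and Mt3 far below it.

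Pitx1 and Gpa33 came first among the 12 genes higher in tumors that were chosen by their log2 difference. Pitx1, a homeobox transcription factor, was at 51.4, 80.9 and 64.3 CPM in the tumors and had 1 count over the 3 scaffolds, a ratio of pooled levels of 1310 (95% interval 234 to 51600). Gpa33, a surface antigen of gut epithelium, was at 44.6, 44.8 and 34.7 CPM against 1 scaffold count, a ratio of 831 (95% interval 149 to 32900). These ratios rest on a single count and their intervals cover counting error alone. Sox9, a progenitor factor of mammary epithelium and not among those 12, was at 499, 562 and 616 CPM in the tumors against 30.3, 35.8 and 26.2 CPM in the scaffolds (log2 difference 4.04 ± 0.20, SE, edgeR adjusted p = 7.13e-07). Its lowest tumor was above its highest scaffold. Hmga2, a chromatin protein of embryonic and cancer cells, was likewise outside the 12, at 376, 368 and 459 CPM in tumors and 26.1, 8.06 and 8.23 CPM in scaffolds, with scaffold 1 the highest of the scaffolds (log2 difference 4.66 ± 0.41, SE, edgeR adjusted p = 1.75e-05).

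Wnt7b, Lgr6, Notum, Hhip and Artn were also among the 12. Wnt7b, a secreted Wnt ligand, was at 31.3, 77.5 and 56.4 CPM in the tumors and 0.734, 0.197 and 0.155 CPM in the scaffolds (log2 difference 6.90 ± 0.51, SE, edgeR adjusted p = 6.69e-06). Lgr6, a receptor for R-spondins that marks epithelial stem cells, was at 91.9, 133 and 129 CPM against 1.96, 1.57 and 0.466 CPM (log2 difference 6.28 ± 0.35, SE, edgeR adjusted p = 1.55e-06). Notum, which removes the lipid from Wnt proteins and so limits their signal, was at 25.3, 34.7 and 12.7 CPM in the tumors against 1 count over the scaffolds, a ratio of 508 (95% interval 90.6 to 20100). Hhip, a membrane protein that binds Hedgehog ligands, was at 38.5, 89.8 and 48.8 CPM against 0.612, 0.197 and 0 CPM (log2 difference 7.39 ± 0.56, SE, edgeR adjusted p = 8.22e-06). They were chosen by size and not as a pathway, and the Wnt inhibitor Sfrp5 was among the 12 higher in scaffolds, while the ligands Wnt4 and Wnt5a did not pass. Artn, a ligand of the RET receptor system, was at 60.2, 72.9 and 60.7 CPM against 0.367, 0.393 and 0.466 CPM (log2 difference 7.10 ± 0.26, SE, edgeR adjusted p = 3.27e-07).

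Secreted proteins of epithelium and part of the keratins were higher in tumors. Of 15 tested keratins, 5 were higher in tumors and none in scaffolds, with a median log2 difference of 0.19. Wfdc2, a whey acidic protein family inhibitor, was at 312, 357 and 356 CPM in the tumors and 5.38, 3.14 and 1.71 CPM in the scaffolds (log2 difference 6.46 ± 0.32, SE, edgeR adjusted p = 7.48e-07). Slpi, an inhibitor of neutrophil elastase, was at 823, 1238 and 953 CPM against 40, 26.9 and 28.6 CPM (log2 difference 4.84 ± 0.24, SE, edgeR adjusted p = 9.05e-07). Krt8 and Krt18 form the filaments of simple epithelium. Krt8 was at 23.9, 35.9 and 21.2 CPM in the tumors and 1.1, 1.18 and 1.24 CPM in the scaffolds (log2 difference 4.37 ± 0.31, SE, edgeR adjusted p = 6.02e-06). Krt18 was at 45, 81.6 and 64.6 CPM and 9.54, 16.1 and 9.63 CPM (log2 difference 2.31 ± 0.29, SE, edgeR adjusted p = 0.000175). Krt76, a keratin of stratified epithelium, was at 12, 35.2 and 35.8 CPM against 0.245, 0.393 and 0.311 CPM (log2 difference 6.27 ± 0.56, SE, edgeR adjusted p = 2.19e-05). In the list of simple epithelial markers, 7 of 11 tested genes were higher in tumors and none in scaffolds, with a median log2 difference of 1.68. Syt8, a synaptotagmin, was at 30.5, 30.1 and 35.3 CPM against 0.489, 0 and 0.466 CPM (log2 difference 6.29 ± 0.40, SE, edgeR adjusted p = 3.25e-06). The unnamed transcript Gm36696 had 20.5, 30.3 and 37.5 CPM in tumors and 3 counts over the scaffolds, a ratio of 188 (95% interval 63.9 to 916).

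**Figure D2:**
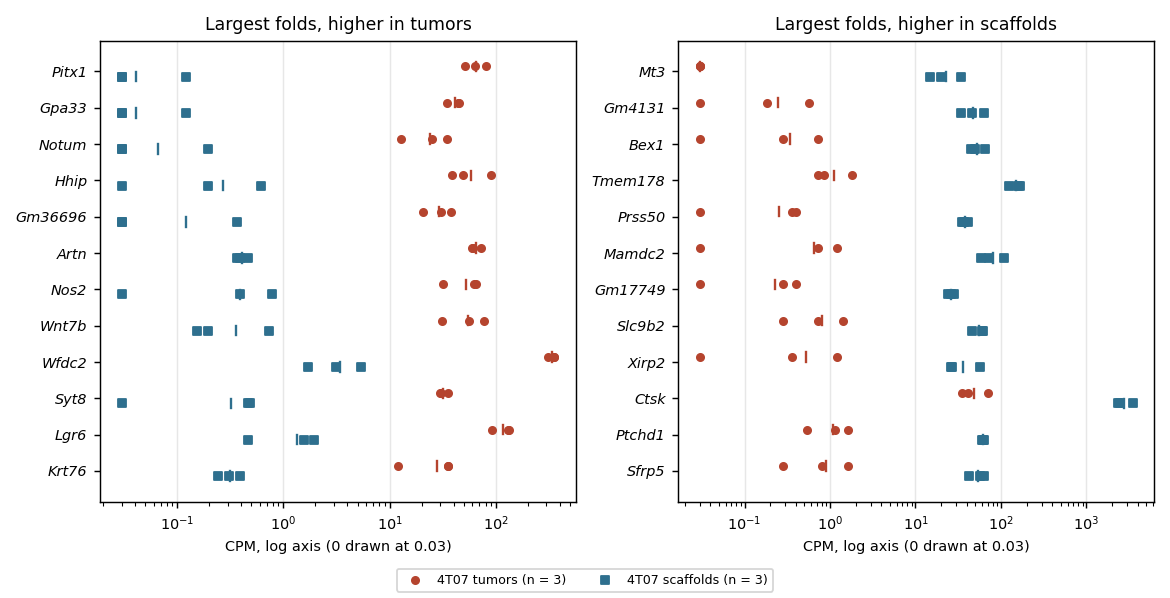
CPM (log axis, 0 drawn at 0.03) of the 12 genes with the largest log2 difference in each direction among those with 20 CPM or more in the higher group, for the 3 tumors (red circles) and the 3 scaffolds (blue squares), with a bar at each group mean. By the rule that chose them, no gene shown has a tumor and a scaffold that overlap.

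Part of the genes of cell division were higher in the tumors, and scaffold 1 was the highest of the scaffolds. The list of 30 mitotic genes summed to 3830.2, 3040.1 and 3215 CPM in the tumors, 1986, 737 and 628 CPM in the scaffolds and 678, 579 and 688 CPM in the control scaffolds. Of the 30, 17 were higher in tumors and none in scaffolds, with a median log2 difference of 1.14. Without scaffold 1 the count was 27, and without scaffold 2 it was 11. Ccnd1, the D-type cyclin that starts the cycle, was at 795, 639.9 and 876 CPM in the tumors and 50.6, 77.1 and 40.2 CPM in the scaffolds (log2 difference 3.64 ± 0.27, SE, edgeR adjusted p = 6.69e-06). Plk1, a kinase of mitotic entry, was at 148, 118 and 112 CPM against 63.5, 23.4 and 23.9 CPM (log2 difference 1.62 ± 0.33, SE, edgeR adjusted p = 0.00392). Ube2c, which feeds cyclins to the proteasome, was at 134, 123 and 96.2 CPM against 54.9, 13.6 and 13.2 CPM (log2 difference 1.96 ± 0.46, SE, edgeR adjusted p = 0.00766). Mki67, the proliferation antigen, was at 137, 96.5 and 89.7 CPM in the tumors and 185, 37.2 and 30.8 CPM in the scaffolds and did not pass (log2 difference 0.22 ± 0.54, SE, edgeR adjusted p = 0.79). Scaffold 1 was above all tumors for it, and without that library the log2 difference was 1.46 and past the threshold. Of 28 DNA replication genes, 5 were higher in tumors, and 18 were without scaffold 1, 3 without tumor 1 or scaffold 2 and 2 without scaffold 3. Their sum was 1737, 1222 and 1230.5 CPM in the tumors and 1291, 594 and 612 CPM in the scaffolds, with scaffold 1 above tumors 2 and 3.

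The promoters of the mitotic genes were searched for elements known from cell cycle genes. A window from 250 bases before to 50 bases after the start of each gene was read from RefSeq (GRCm38.p6), and 23 of the 30 mitotic genes had one. TTTGAA, the core of the cell cycle homology region, was found on either strand in 65.2% of these, against 20.2% of all 27025 genes with a window, and CCAAT in 78.3% against 41.1%. For the replication list, TTTNNCGC, the core of an E2F site, was found in 47.8% of 23 genes, against 5.93% of all. Both lists were made of known cell cycle genes, so these shares describe the lists and not the contrast of tumor and scaffold. The 3 called mitotic genes with both elements and the highest tumor level are shown, with TTTGAA and CCAAT on either strand in capitals.
Top2a, chr11:99024140-99024439, minus strand: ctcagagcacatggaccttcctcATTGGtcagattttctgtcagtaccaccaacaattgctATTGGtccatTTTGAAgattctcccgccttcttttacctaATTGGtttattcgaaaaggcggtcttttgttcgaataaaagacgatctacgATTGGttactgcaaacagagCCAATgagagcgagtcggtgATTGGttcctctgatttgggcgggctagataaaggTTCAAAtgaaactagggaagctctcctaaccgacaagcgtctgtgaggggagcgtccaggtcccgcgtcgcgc
Cenpf, chr1:189688037-189688336, minus strand: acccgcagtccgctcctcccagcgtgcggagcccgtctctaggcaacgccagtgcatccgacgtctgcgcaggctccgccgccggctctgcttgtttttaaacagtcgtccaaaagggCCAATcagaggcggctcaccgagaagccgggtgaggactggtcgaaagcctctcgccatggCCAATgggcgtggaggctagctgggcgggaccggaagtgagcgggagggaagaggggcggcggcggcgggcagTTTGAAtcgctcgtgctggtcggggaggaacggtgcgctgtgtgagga
Plk1, chr7:122159185-122159484, plus strand: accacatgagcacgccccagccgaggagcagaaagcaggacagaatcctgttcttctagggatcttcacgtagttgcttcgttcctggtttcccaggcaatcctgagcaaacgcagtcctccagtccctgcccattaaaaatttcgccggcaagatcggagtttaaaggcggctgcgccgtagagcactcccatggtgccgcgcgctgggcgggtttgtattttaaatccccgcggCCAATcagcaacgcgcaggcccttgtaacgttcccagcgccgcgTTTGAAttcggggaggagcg
Top2a, the topoisomerase of dividing cells, was at 747, 570.1 and 637 CPM in the tumors and 408, 148 and 128 CPM in the scaffolds (log2 difference 1.38 ± 0.37, SE, edgeR adjusted p = 0.0156), and its window held 8 matches. Without scaffold 2 its call was lost, with a log2 difference of 1.14. Cenpf, a kinetochore protein, was at 233, 231 and 198 CPM against 151, 41.9 and 36 CPM (log2 difference 1.39 ± 0.44, SE, edgeR adjusted p = 0.0326), and leaving out any single library other than scaffold 1 ended its call. A match says that these letters are present and shows no binding.

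The hypoxia response was higher in the tumors in 13 of 18 genes and in none in the scaffolds, with a median log2 difference of 1.40. The list summed to 1269, 1966 and 1650.2 CPM in the tumors, 552, 638 and 624 CPM in the scaffolds and 463, 536 and 578 CPM in the control scaffolds, and tumor 2 was the highest. Car9, a membrane carbonic anhydrase, was at 49.6, 68.9 and 39.8 CPM against 0.979, 1.18 and 1.24 CPM (log2 difference 5.40 ± 0.30, SE, edgeR adjusted p = 1.65e-06). Egln3, an oxygen sensor, was at 94.7, 157 and 98.2 CPM against 4.77, 6.29 and 5.28 CPM (log2 difference 4.29 ± 0.26, SE, edgeR adjusted p = 2.71e-06). Vegfa, the vessel growth factor, was at 74.3, 98.9 and 101 CPM against 9.17, 4.91 and 9.63 CPM (log2 difference 3.37 ± 0.25, SE, edgeR adjusted p = 6.69e-06). Each of these genes was higher in every tumor than in any scaffold. Pdk1, which closes the entry of pyruvate to the mitochondrion, was at 119, 195 and 155 CPM against 27, 24.2 and 24.1 CPM (log2 difference 2.50 ± 0.20, SE, edgeR adjusted p = 1.14e-05).

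Glycolysis moved in the same direction in part of its enzymes. Of 18 genes, 8 were higher in tumors and none in scaffolds, with a median log2 difference of 0.69. Hk2, the inducible hexokinase, was at 560.1, 892 and 892 CPM against 90.8, 112 and 132 CPM (log2 difference 2.67 ± 0.24, SE, edgeR adjusted p = 2.01e-05), and Slc2a1, the glucose transporter, at 187, 311 and 236 CPM against 63.6, 75.5 and 94.9 CPM (log2 difference 1.51 ± 0.22, SE, edgeR adjusted p = 0.000518). Ldha, the lactate dehydrogenase subunit, was at 1098, 1222 and 1261 CPM and 781, 639 and 918 CPM and did not pass (log2 difference 0.48 ± 0.18, SE, edgeR adjusted p = 0.0661). Aldoa, an aldolase, was at 613, 566 and 676 CPM in the tumors and 794, 929 and 959 CPM in the scaffolds, lower in every tumor but under the fold of 2 (log2 difference -0.68 ± 0.17, SE, edgeR adjusted p = 0.0107). Of 17 genes of serine synthesis and the amino acid response, 8 were higher in tumors, among them Slc7a5, an amino acid transporter, at 121, 125 and 95.4 CPM against 22.8, 19.7 and 8.23 CPM (log2 difference 2.61 ± 0.31, SE, edgeR adjusted p = 0.000134). Of 20 lipid synthesis genes, 7 were higher in tumors and 1 in scaffolds. Scd1, the stearoyl-CoA desaturase, was at 459, 368 and 441 CPM against 137, 184 and 165 CPM, with 177 to 439.7 CPM in control scaffolds (log2 difference 1.24 ± 0.17, SE, edgeR adjusted p = 0.000377), and Dhcr7, the last enzyme of cholesterol synthesis, was the one higher in scaffolds, at 10.6, 7.26 and 13.8 CPM against 20.7, 21.8 and 33.5 CPM (log2 difference -1.42 ± 0.28, SE, edgeR adjusted p = 0.00308). Of 32 respiratory chain genes, none was higher in tumors and 3 were higher in scaffolds, near the share of all genes.

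**Figure D3:**
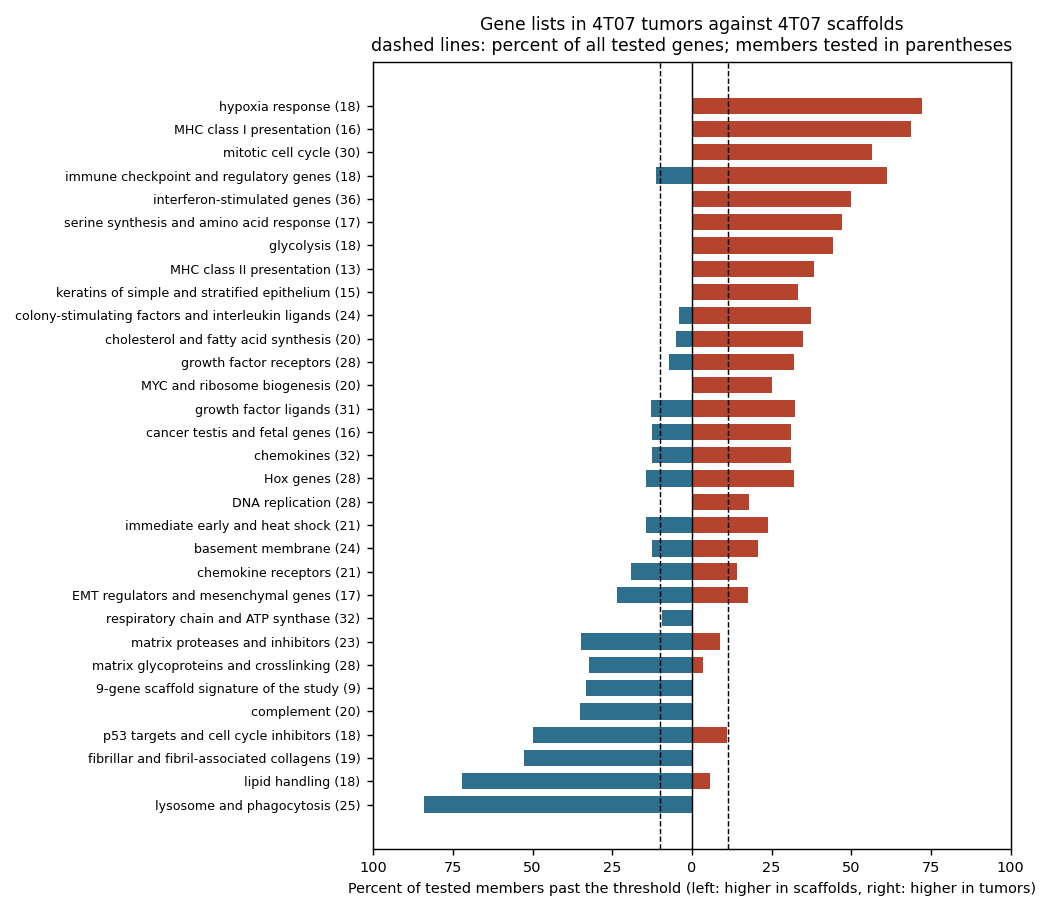
Percent of the tested members of each of 31 gene lists past the threshold, higher in the scaffolds to the left (blue) and higher in the tumors to the right (red), with dashed lines at 10 and 11.3, the percent over all tested genes. Hypoxia and MHC class I presentation reach farthest to the right, and lysosome and lipid handling farthest to the left.

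The scaffolds were marked by the genes of giant cells and lipid-laden macrophages. In the list of 13 such genes, 12 were higher in scaffolds and none in tumors, with a median log2 difference of -4.04. The list summed to 17116, 23519 and 21839.9 CPM in scaffolds of 4T07 mice, 16715, 18388 and 19285 CPM in control scaffolds and 3434, 4050.3 and 3466 CPM in tumors. Ctsk, the collagen-degrading cathepsin of osteoclasts, was at 70.6, 34.7 and 41.2 CPM in the tumors and 2314, 3477 and 2497 CPM in the scaffolds (log2 difference -5.97 ± 0.34, SE, edgeR adjusted p = 1.76e-06). Atp6v0d2, a proton pump subunit needed for macrophage fusion, was at 25.7, 10.7 and 10.7 CPM against 741, 818 and 744 CPM (log2 difference -5.75 ± 0.34, SE, edgeR adjusted p = 2.14e-06). Dcstamp, the membrane protein of cell fusion, was at 3.21, 2.72 and 1.69 CPM against 107, 142 and 101 CPM (log2 difference -5.61 ± 0.26, SE, edgeR adjusted p = 6.94e-07). All 3 scaffolds lay above all 3 tumors for each of them. Control scaffolds held 3324 to 3632 CPM of Ctsk, 755 to 967 CPM of Atp6v0d2 and 51.6 to 81.1 CPM of Dcstamp. Oscar, an activating receptor of osteoclasts, had no count in any tumor and 9.3, 10.4 and 7.46 CPM in the scaffolds, at least 42-fold lower in tumors when 3 counts over the group are taken as the floor.

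Gpnmb, a glycoprotein of stressed lysosomes and foam cells, had the largest difference in level of all genes higher in scaffolds, at 7157, 9616 and 9871 CPM against 325, 359 and 279 CPM in the tumors (log2 difference -4.93 ± 0.26, SE, edgeR adjusted p = 1.22e-06). Lpl, which frees fatty acids from lipoproteins, was at 3469, 4525 and 3613 CPM in scaffolds and 472, 448 and 241 CPM in tumors (log2 difference -3.47 ± 0.29, SE, edgeR adjusted p = 1.43e-05). Trem2, the lipid-sensing receptor of macrophages, was at 193, 217 and 278 CPM against 16.9, 14.2 and 15 CPM (log2 difference -4.04 ± 0.20, SE, edgeR adjusted p = 7.14e-07). Cd36, a scavenger receptor for oxidized lipid, was at 504, 658 and 852 CPM against 96.9, 48.4 and 47.1 CPM (log2 difference -3.53 ± 0.31, SE, edgeR adjusted p = 2.04e-05). Apoe, the carrier of cholesterol leaving cells, was at 2986, 3779 and 3339 CPM against 1447, 878 and 1237 CPM (log2 difference -1.65 ± 0.23, SE, edgeR adjusted p = 0.000352). Of 18 lipid handling genes, 13 were higher in scaffolds and 1 in tumors, with a median log2 difference of -1.79. The exception was Ch25h, which makes the oxysterol that limits cholesterol synthesis, at 5.42, 10.2 and 4.23 CPM in the tumors and 0.612, 0.786 and 1.55 CPM in the scaffolds (log2 difference 2.62 ± 0.48, SE, edgeR adjusted p = 0.00209).

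Lysosomal genes were higher in scaffolds in 21 of 25 members and in tumors in none. The cathepsins Ctsb, Ctsd and Ctsl digest protein in the lysosome. Ctsb was at 5280.2, 6325 and 6521 CPM in the scaffolds and 1345, 965 and 888 CPM in the tumors (log2 difference -2.65 ± 0.24, SE, edgeR adjusted p = 2.04e-05). Ctsd was at 3563, 3895 and 4966 CPM against 624, 368 and 380.4 CPM (log2 difference -3.32 ± 0.27, SE, edgeR adjusted p = 1.1e-05), and Ctsl at 4244, 7377 and 6466 CPM against 2558, 2387 and 2043 CPM (log2 difference -1.52 ± 0.25, SE, edgeR adjusted p = 0.00114). The scaffolds were above the tumors in all 3, by the least in Ctsl. Lipa, the acid lipase, was at 614, 834 and 923 CPM against 123, 71.1 and 73.9 CPM (log2 difference -3.29 ± 0.26, SE, edgeR adjusted p = 9.88e-06). Lgals3, a galectin of activated macrophages, was at 3583, 3869 and 3813 CPM against 668, 683 and 645 CPM (log2 difference -2.64 ± 0.19, SE, edgeR adjusted p = 5.58e-06).

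Of 12 general macrophage markers, 6 were higher in scaffolds and 1 in tumors. Cd68, a lysosomal protein of macrophages, was at 644, 699.8 and 665 CPM in scaffolds and 81.9, 61.1 and 54.2 CPM in tumors (log2 difference -3.49 ± 0.20, SE, edgeR adjusted p = 1.65e-06), and Adgre1, which encodes F4/80, at 151, 245 and 216 CPM against 130.4, 90 and 69.7 CPM (log2 difference -1.22 ± 0.25, SE, edgeR adjusted p = 0.00383). Cd163, the scavenger receptor for hemoglobin, was the single one higher in tumors, at 64, 89.6 and 95.7 CPM against 17.4, 10 and 10.3 CPM (log2 difference 2.57 ± 0.25, SE, edgeR adjusted p = 3.47e-05). None of the 8 monocyte markers passed in either direction. Itgax, the integrin CD11c, was at 608, 769 and 839 CPM in scaffolds and 33.1, 25.4 and 32.7 CPM in tumors (log2 difference -4.75 ± 0.21, SE, edgeR adjusted p = 6.41e-07). It was the only 1 of 10 dendritic cell markers higher in scaffolds. Another 3, Flt3, Ccr7 and Fscn1, were higher in tumors, and the median log2 difference of that list was 0.68. C3ar1, a complement receptor of myeloid cells, was at 491, 695 and 824 CPM against 169, 116 and 151 CPM (log2 difference -2.35 ± 0.23, SE, edgeR adjusted p = 3.71e-05). Of 20 complement genes, 7 were higher in scaffolds and none in tumors.

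**Figure D4:**
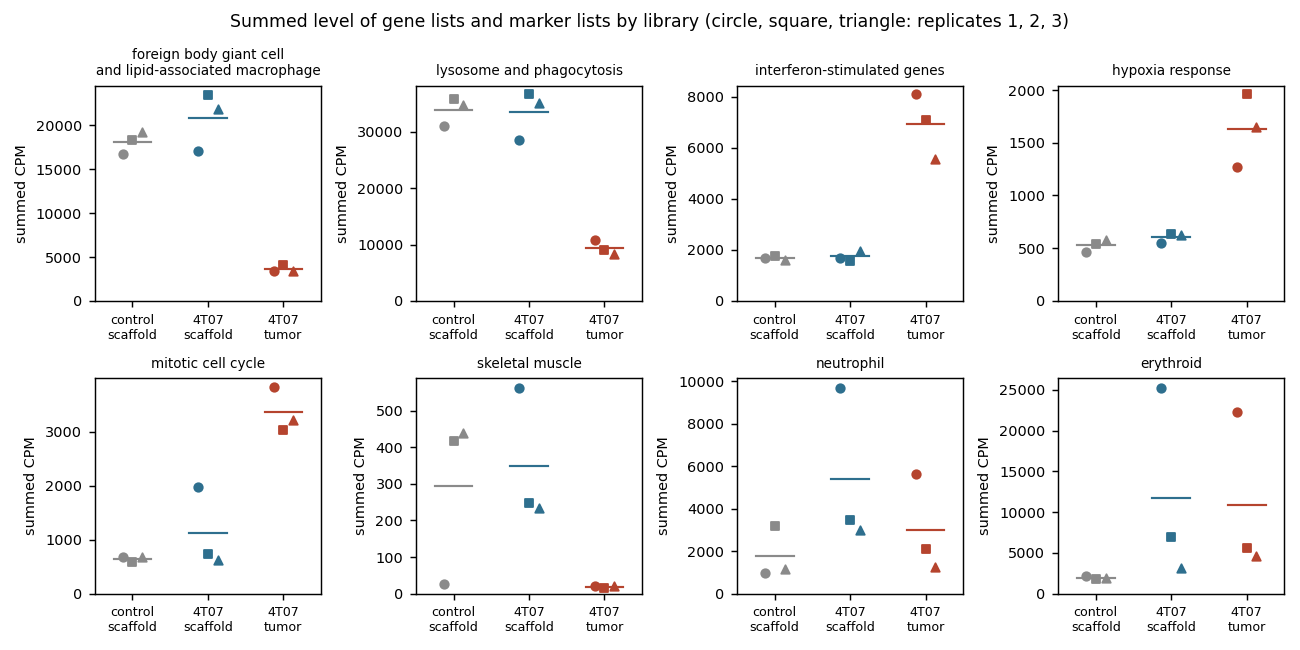
Summed CPM (axes from 0) of 8 gene or marker lists in control scaffolds (gray), 4T07 scaffolds (blue) and 4T07 tumors (red), with circle, square and triangle for replicates 1, 2 and 3 and a line at the mean. Giant cell and lysosome sums are high in both kinds of scaffold, interferon and hypoxia sums in the tumors, and replicate 1 is the highest for neutrophil and erythroid sums in both 4T07 groups.

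Several scaffold genes fell outside these lists. Mt3, a zinc-binding metallothionein known from brain, had no count in any tumor and 34.2, 14.7 and 19.9 CPM in the scaffolds, at least 115-fold lower in tumors against the same floor, and 48 to 78.9 CPM in control scaffolds. Bex1, an adaptor known from neurons, was at 44.2, 49.5 and 65.1 CPM against 0, 0.726 and 0.282 CPM (log2 difference -7.27 ± 0.44, SE, edgeR adjusted p = 2.65e-06). Tmem178, a membrane protein that restrains osteoclast formation, was at 123, 157 and 166 CPM against 1.81, 0.726 and 0.847 CPM (log2 difference -7.14 ± 0.29, SE, edgeR adjusted p = 3.68e-07). Mamdc2, a secreted matrix protein, was at 59, 73.3 and 109.5 CPM against 1.2, 0.726 and 0 CPM (log2 difference -6.93 ± 0.45, SE, edgeR adjusted p = 3.54e-06), and the protease Prss50 at 40.9, 35.2 and 37.3 CPM against 0.401, 0.363 and 0 CPM (log2 difference -7.09 ± 0.37, SE, edgeR adjusted p = 1.04e-06). Each of these 5 genes was above 10 CPM in every scaffold and below 2 CPM in every tumor. Slc9b2, a sodium-proton exchanger of osteoclasts, was at 60.3, 60.9 and 46 CPM against 1.4, 0.726 and 0.282 CPM (log2 difference -6.14 ± 0.33, SE, edgeR adjusted p = 1.4e-06), and Sfrp5, a secreted Wnt inhibitor, at 42.7, 63.7 and 56.4 CPM against 0.803, 1.63 and 0.282 CPM (log2 difference -5.90 ± 0.37, SE, edgeR adjusted p = 2.95e-06). Ptchd1, a membrane protein related to the Hedgehog receptor, was at 59.6, 61.7 and 63.7 CPM against 1.61, 0.544 and 1.13 CPM (log2 difference -5.96 ± 0.28, SE, edgeR adjusted p = 7.07e-07). The unnamed transcripts Gm4131 and Gm17749 had 3 counts each over the tumors, and ratios of scaffolds over tumors of 217 (95% interval 74 to 1050) and 122 (95% interval 41.5 to 593).

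Part of a mixed list of p53 targets and cell cycle inhibitors was higher in scaffolds. Of 18 p53 targets and cell cycle inhibitors, 9 were higher in scaffolds and 2 in tumors, with a median log2 difference of -0.99. The 9 were the inhibitors Cdkn1c, Cdkn2a and Cdkn2b, and Mdm2, Ccng1, Gadd45b, Zmat3, Eda2r and Sesn1. Cdkn1a, Rb1 and Rbl2 did not pass. Cdkn1c, the inhibitor p57, was at 135, 174 and 172 CPM in scaffolds and 4.01, 4.9 and 4.8 CPM in tumors (log2 difference -5.27 ± 0.21, SE, edgeR adjusted p = 3.39e-07). Cdkn2a, which encodes p16 and Arf, was at 22.9, 31.1 and 30 CPM against 5.82, 1.81 and 1.98 CPM, with 56.8 to 83.9 CPM in control scaffolds (log2 difference -3.24 ± 0.38, SE, edgeR adjusted p = 0.000117). Cdkn1b, the inhibitor p27, went the other way, at 144, 225 and 132 CPM in tumors and 52.8, 25.6 and 21.4 CPM in scaffolds (log2 difference 2.19 ± 0.33, SE, edgeR adjusted p = 0.000591).

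Skeletal muscle genes separated the 4T07 tissues. Of 12 tested muscle markers, 10 were higher in scaffolds and none in tumors, and the list summed to 560.5, 249 and 233 CPM in the scaffolds, 21.9, 15.8 and 20.9 CPM in the tumors and 27.1, 417 and 439 CPM in the control scaffolds. Myh4, a fast myosin, was at 199.9, 86.1 and 25.2 CPM in scaffolds and 3.61, 2.36 and 4.23 CPM in tumors (log2 difference -5.10 ± 0.69, SE, edgeR adjusted p = 0.000309). Xirp2, an actin-binding protein of striated muscle, was at 56.3, 25.7 and 26.6 CPM against 1.2, 0.363 and 0 CPM (log2 difference -6.09 ± 0.56, SE, edgeR adjusted p = 2.55e-05). Scaffold 1 was the highest for both, and 1 control scaffold was close to the tumors in the summed level. In a fit of the tumors and scaffolds of all 3 lines, 2 muscle markers were higher in scaffolds for 67NR and none for 4T1. None was higher in tumors in either. Myh4 was at 31.5, 5.33 and 126 CPM in 4T1 tumors and 15.7, 13.4 and 2.15 CPM in 4T1 scaffolds. The part of muscle next to the implant in these values was not tested.

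Part of the interstitial matrix was higher in scaffolds and some basement membrane chains in tumors. Of 19 fibrillar and associated collagens, 10 were higher in scaffolds and none in tumors, with a median log2 difference of -1.03. Col6a3, a chain of the beaded collagen VI, was at 683, 1003 and 653 CPM in scaffolds and 243, 208 and 174 CPM in tumors (log2 difference -2.05 ± 0.22, SE, edgeR adjusted p = 7.21e-05). Col11a1, a collagen of cartilage and activated fibroblasts, was at 37.7, 45 and 52 CPM against 5.82, 3.99 and 3.39 CPM (log2 difference -3.47 ± 0.25, SE, edgeR adjusted p = 5.72e-06). Col1a2, a chain of collagen I, stood nearer to the threshold, at 3593, 5558 and 4561 CPM against 2755, 1735 and 2939.9 CPM (log2 difference -1.03 ± 0.26, SE, edgeR adjusted p = 0.0123), and its call was lost without tumor 2 or scaffold 2 and with library totals as the scaling. Col3a1 was at 1829, 2405 and 2289 CPM against 1562, 1229 and 1635 CPM and stayed under the fold of 2 (log2 difference -0.71 ± 0.20, SE, edgeR adjusted p = 0.0212). Of 28 matrix glycoproteins, 9 were higher in scaffolds and 1 in tumors. Lum, the proteoglycan lumican that spaces collagen fibrils, was at 123, 151 and 134 CPM against 27.9, 23.2 and 21.7 CPM (log2 difference -2.62 ± 0.17, SE, edgeR adjusted p = 3.69e-06). Fn1, fibronectin, was at 1744, 2159 and 2211 CPM and 1285, 2665 and 1729.7 CPM and did not pass (log2 difference -0.25 ± 0.27, SE, edgeR adjusted p = 0.519).

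In the basement membrane list, 5 of 24 genes were higher in tumors and 3 in scaffolds. Lama5, the laminin chain of epithelial sheets, was at 122, 179.8 and 141 CPM in tumors and 3.91, 3.93 and 5.59 CPM in scaffolds (log2 difference 4.90 ± 0.24, SE, edgeR adjusted p = 7.13e-07). Agrn, the proteoglycan agrin, was at 103, 116 and 88.1 CPM against 30.1, 32.8 and 26.1 CPM (log2 difference 1.64 ± 0.17, SE, edgeR adjusted p = 5.91e-05). Col15a1, of the zone under vessel and muscle membranes, was higher in scaffolds, at 74.2, 94.9 and 82 CPM against 28.1, 21.8 and 29.6 CPM in tumors (log2 difference -1.81 ± 0.18, SE, edgeR adjusted p = 4.65e-05). Among 23 matrix proteases and their inhibitors, 8 were higher in scaffolds and 2 in tumors. Mmp12, the elastase of macrophages, was at 1864, 3511 and 2743 CPM in scaffolds and 683, 294 and 328 CPM in tumors (log2 difference -2.79 ± 0.36, SE, edgeR adjusted p = 0.00022). Mmp9, a gelatinase of osteoclasts and neutrophils, was at 874, 981 and 718 CPM against 143, 63.9 and 88.6 CPM (log2 difference -3.27 ± 0.29, SE, edgeR adjusted p = 1.84e-05). Mmp14, a membrane protease, was at 821, 949 and 738 CPM and 632, 546 and 442 CPM, lower in every tumor but under the fold of 2 (log2 difference -0.78 ± 0.19, SE, edgeR adjusted p = 0.01).

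Interferon-stimulated genes were higher in the tumors in 18 of 36 members and in the scaffolds in none, with a median log2 difference of 1.01. The list summed to 8098, 7101 and 5565 CPM in the tumors, 1690.4, 1570.1 and 1962 CPM in scaffolds of 4T07 mice and 1666, 1753 and 1593 CPM in control scaffolds, so that the 2 kinds of scaffold overlapped. Iigp1, an interferon-inducible GTPase against intracellular parasites, was at 1353, 1171 and 944 CPM in tumors and 75.2, 91.8 and 148 CPM in scaffolds (log2 difference 3.32 ± 0.27, SE, edgeR adjusted p = 1.19e-05). Irf1, the transcription factor of the interferon gamma response, was at 991, 943 and 738 CPM against 112, 151 and 167 CPM (log2 difference 2.49 ± 0.21, SE, edgeR adjusted p = 1.41e-05). Gbp4, a guanylate binding protein of a family with close copies, was at 550.1, 498 and 259 CPM against 25.9, 27.3 and 30.3 CPM (log2 difference 3.83 ± 0.28, SE, edgeR adjusted p = 6.17e-06). In each of these genes the lowest tumor was above the highest scaffold. Rsad2, the antiviral protein viperin, was at 487, 208 and 196 CPM and 432, 229 and 328 CPM and did not pass (log2 difference -0.29 ± 0.33, SE, edgeR adjusted p = 0.547). Ifng, the ligand itself, was at 6.02, 4.54 and 3.95 CPM in the tumors and 0.367, 0.393 and 0.466 CPM in the scaffolds (log2 difference 3.37 ± 0.43, SE, edgeR adjusted p = 0.000214).

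The interferon response element, read as GAAA, any 2 bases and GAAA again, was found on either strand in the promoter windows of 57.1% of the 28 list members with a window, against 3.99% of all genes. Among the 14 called members with a window, 64.3% held it. The list was made of known interferon-stimulated genes, so these shares describe the list and not the contrast of tumor and scaffold. Here too, a match shows no binding. The 4 called members with a match and the highest tumor level are shown, with the matches in capitals; overlapping matches run together.
Igtp, chr11:58199306-58199605, plus strand: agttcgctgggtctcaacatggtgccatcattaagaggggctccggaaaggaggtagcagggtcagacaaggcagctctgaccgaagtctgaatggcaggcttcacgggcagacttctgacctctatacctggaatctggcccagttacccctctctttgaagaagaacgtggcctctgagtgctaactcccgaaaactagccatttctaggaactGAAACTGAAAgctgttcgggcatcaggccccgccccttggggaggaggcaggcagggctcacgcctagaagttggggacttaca
Bst2, chr8:71537423-71537722, minus strand: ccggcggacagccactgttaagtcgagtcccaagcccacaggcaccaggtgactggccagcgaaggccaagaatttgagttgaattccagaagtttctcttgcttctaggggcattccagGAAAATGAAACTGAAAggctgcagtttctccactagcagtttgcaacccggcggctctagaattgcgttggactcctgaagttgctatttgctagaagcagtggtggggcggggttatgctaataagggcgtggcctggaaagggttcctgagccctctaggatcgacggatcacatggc
Gbp2, chr3:142620413-142620712, plus strand: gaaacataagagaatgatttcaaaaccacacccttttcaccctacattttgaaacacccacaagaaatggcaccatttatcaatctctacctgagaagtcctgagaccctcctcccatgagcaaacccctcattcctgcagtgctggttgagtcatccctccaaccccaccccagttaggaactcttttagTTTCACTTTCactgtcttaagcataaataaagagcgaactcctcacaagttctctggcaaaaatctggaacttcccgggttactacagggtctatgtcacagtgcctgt
Isg15, chr4:156200769-156201068, minus strand: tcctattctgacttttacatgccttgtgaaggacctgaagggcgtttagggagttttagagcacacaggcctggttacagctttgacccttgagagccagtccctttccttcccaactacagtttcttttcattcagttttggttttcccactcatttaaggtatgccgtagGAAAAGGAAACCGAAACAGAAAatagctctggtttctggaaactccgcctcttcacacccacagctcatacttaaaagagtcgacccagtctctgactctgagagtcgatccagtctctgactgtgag
The single match of Igtp lay 34 bases before the start of the gene and that of Gbp2 59 bases before it, on the opposite strand, while Bst2 held 2 and Isg15 3 overlapping matches. Igtp, a GTPase of the same family as Iigp1, was at 865, 826 and 537 CPM in tumors and 75.2, 48.6 and 78.7 CPM in scaffolds (log2 difference 3.32 ± 0.25, SE, edgeR adjusted p = 7.02e-06). Bst2, the tetherin that holds budding virus at the cell surface, was at 719, 779 and 560.5 CPM against 117, 120.1 and 147 CPM (log2 difference 2.28 ± 0.19, SE, edgeR adjusted p = 1.2e-05). Gbp2 was at 223, 243 and 158 CPM against 18.6, 24.4 and 25.5 CPM (log2 difference 3.05 ± 0.22, SE, edgeR adjusted p = 5.7e-06). Isg15, a ubiquitin-like modifier, was at 230.0, 210.1 and 132 CPM against 65.4, 38.9 and 49.5 CPM (log2 difference 1.75 ± 0.24, SE, edgeR adjusted p = 0.000307).

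Antigen presentation followed the same direction. Of 16 MHC class I genes, 11 were higher in tumors and none in scaffolds. Psmb9, a subunit of the immunoproteasome, was at 213, 264 and 168 CPM against 19.4, 19.5 and 30.1 CPM (log2 difference 3.08 ± 0.23, SE, edgeR adjusted p = 8.16e-06), and Tap1, the peptide transporter, at 349, 328 and 311 CPM against 84.4, 93.2 and 134 CPM (log2 difference 1.52 ± 0.19, SE, edgeR adjusted p = 0.000179). B2m, the common light chain, was at 3642, 3390.1 and 2949 CPM and 2065, 2817 and 2593 CPM and did not pass (log2 difference 0.27 ± 0.21, SE, edgeR adjusted p = 0.347). Heavy chains such as H2-K1, at 814, 743 and 811 CPM against 214, 399 and 209 CPM (log2 difference 1.37 ± 0.26, SE, edgeR adjusted p = 0.0023), have near-identical copies, so that their counts may be split. Of 13 MHC class II genes, 5 were higher in tumors, a count that was 8 without scaffold 1 and 3 without tumor 3. H2-DMb1, of the peptide exchange factor, was at 351, 263 and 294 CPM against 93.2, 141 and 88.8 CPM (log2 difference 1.35 ± 0.21, SE, edgeR adjusted p = 0.000802).

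Immune checkpoint and regulatory genes, which include receptors that restrain T cells and others that costimulate them, were higher in tumors in 11 of 18 cases and in scaffolds in 2. Arg1, the arginase of suppressive macrophages, was at 1045, 801 and 869.5 CPM in tumors and 2.32, 14.2 and 21.9 CPM in scaffolds (log2 difference 6.02 ± 0.60, SE, edgeR adjusted p = 3.96e-05). Nos2, the inducible nitric oxide synthase that uses the same amino acid, was at 64.4, 62.4 and 31.6 CPM against 0, 0.393 and 0.777 CPM (log2 difference 6.98 ± 0.55, SE, edgeR adjusted p = 9.44e-06). Both arginine-using enzymes were higher in every tumor than in any scaffold. Cd274, which encodes PD-L1, was at 67.2, 72.6 and 45.4 CPM against 9.05, 11.4 and 17.7 CPM (log2 difference 2.14 ± 0.27, SE, edgeR adjusted p = 0.000196), and Pdcd1lg2, which encodes PD-L2, at 23.1, 14.9 and 27.4 CPM against 0.734, 2.16 and 1.24 CPM (log2 difference 3.88 ± 0.39, SE, edgeR adjusted p = 4.59e-05). Tnfrsf9, the activation receptor 4-1BB, was at 51.6, 73.7 and 64.1 CPM against 4.77, 7.86 and 4.97 CPM (log2 difference 3.30 ± 0.25, SE, edgeR adjusted p = 8.22e-06). Vsir, the checkpoint VISTA of myeloid cells, was higher in scaffolds, at 397, 378 and 381 CPM against 109, 102 and 88.1 CPM (log2 difference -2.09 ± 0.15, SE, edgeR adjusted p = 6.2e-06). Of 13 T cell markers, 7 were higher in tumors, and 11 were without tumor 2. The markers summed to 139, 100 and 276 CPM in the tumors and 81, 50.7 and 41.9 CPM in the scaffolds. Cd8a, of cytotoxic T cells, was at 8.03, 6.35 and 8.18 CPM against 2.45, 1.38 and 0.311 CPM (log2 difference 2.24 ± 0.49, SE, edgeR adjusted p = 0.00584). No B cell marker passed in either direction. Among the lists not described further, 5 of 20 MYC and ribosome biogenesis genes were higher in tumors, as were 5 of 21 immediate early and heat shock genes, with 3 higher in scaffolds, and 5 of 16 cancer testis and fetal genes, with 2 higher in scaffolds. Of 12 fibroblast markers 4 and of 15 neutrophil markers 2 (Mmp9 and Clec4d) were higher in scaffolds, with none higher in tumors. For the neutrophil, immediate early and fetal lists, the scaffold counts were near the 10% over all genes.

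Chemokines and cytokines were in part higher in the tumors. Of 32 chemokines, 10 were higher in tumors and 4 in scaffolds, the latter near the 10% over all genes. Summed, the chemokines were at 4208, 3752 and 3729 CPM in tumors and 2571, 2621 and 2851 CPM in 4T07 scaffolds. Control scaffolds, at 4055, 4750 and 3424 CPM, overlapped the tumors. Cxcl9, which draws activated T cells, was at 277, 206 and 203 CPM in tumors and 23.4, 23.8 and 47.8 CPM in scaffolds (log2 difference 2.71 ± 0.28, SE, edgeR adjusted p = 4.83e-05). Ccl9, made by macrophages and osteoclasts, was at 138, 146 and 154 CPM against 384, 427 and 431 CPM (log2 difference -1.65 ± 0.15, SE, edgeR adjusted p = 2.46e-05), and Cxcl12, the stromal ligand of CXCR4, at 225, 148 and 171 CPM against 347, 409 and 389 CPM (log2 difference -1.22 ± 0.18, SE, edgeR adjusted p = 0.000598). Among receptors, Ackr3, which clears Cxcl12, was higher in tumors, at 137, 195 and 202 CPM against 25.2, 25.4 and 30.4 CPM (log2 difference 2.58 ± 0.19, SE, edgeR adjusted p = 7.78e-06), while Cxcr4 was higher in scaffolds, at 50.9, 51.9 and 47.4 CPM against 18.5, 20.3 and 10.7 CPM (log2 difference -1.72 ± 0.23, SE, edgeR adjusted p = 0.000241). Ligand and signaling receptor were thus both lower in the tumors and the scavenger receptor higher. Cx3cr1, the fractalkine receptor of tissue macrophages, was at 133, 133 and 123 CPM in scaffolds and 32.3, 35.9 and 29.4 CPM in tumors (log2 difference -2.13 ± 0.15, SE, edgeR adjusted p = 6.15e-06). Of 24 colony-stimulating factors and interleukins, 9 were higher in tumors and 1 in scaffolds. The latter was Il1rn, the antagonist of interleukin 1, at 531, 618 and 633 CPM against 70, 54.4 and 57.6 CPM (log2 difference -3.44 ± 0.18, SE, edgeR adjusted p = 1.11e-06). With Il1rn included, the summed level of that list was lower in tumors. It was at 462, 727 and 591 CPM in tumors and 854, 943 and 1031 CPM in 4T07 scaffolds. Control scaffolds summed to 1139, 1974 and 1096 CPM. Tslp, an epithelial alarm cytokine, was at 37.7, 215 and 102 CPM in tumors and 5.87, 3.93 and 4.97 CPM in scaffolds and lowest in tumor 1 (log2 difference 4.43 ± 0.56, SE, edgeR adjusted p = 0.000196). Il1b was at 89.1, 171 and 149.9 CPM and 49.9, 74.5 and 133 CPM, and the groups overlapped (log2 difference 0.53 ± 0.34, SE, edgeR adjusted p = 0.26).

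Part of the growth factors and their receptors were higher in tumors. Of 31 ligands, 10 were higher in tumors and 4 in scaffolds, and of 28 receptors, 9 and 2. Tgfa, a ligand of the EGF receptor, was at 22.7, 24.3 and 19.8 CPM in tumors and 0.367, 1.38 and 0.466 CPM in scaffolds (log2 difference 4.86 ± 0.39, SE, edgeR adjusted p = 1.12e-05), and Hbegf, another, at 103, 113 and 126 CPM against 33, 37.9 and 31.2 CPM (log2 difference 1.60 ± 0.16, SE, edgeR adjusted p = 4.83e-05). Bdnf, a neurotrophin, was at 82.9, 113 and 105 CPM against 6.97, 12.2 and 9.79 CPM (log2 difference 3.25 ± 0.24, SE, edgeR adjusted p = 6.74e-06). Epha2, an ephrin receptor, was at 22.7, 23 and 22 CPM against 0.734, 0.197 and 1.24 CPM (log2 difference 4.73 ± 0.37, SE, edgeR adjusted p = 9.44e-06). The collagen receptors Ddr1 and Ddr2 were both higher in tumors: Ddr1 was at 187, 241 and 176 CPM against 27.2, 25.7 and 18.3 CPM (log2 difference 2.94 ± 0.21, SE, edgeR adjusted p = 5.68e-06), and Ddr2 at 281, 249 and 251 CPM against 70.6, 66.4 and 64.3 CPM (log2 difference 1.81 ± 0.14, SE, edgeR adjusted p = 9.44e-06). Axl, a receptor of invasive cells, was at 195, 199 and 204 CPM against 82.7, 76.1 and 78.4 CPM (log2 difference 1.19 ± 0.14, SE, edgeR adjusted p = 9.5e-05). Of 28 Hox genes, 9 were higher in tumors and 4 in scaffolds. Hoxa5, which patterns the trunk, was at 70.2, 84.9 and 84.7 CPM against 9.17, 8.85 and 5.44 CPM (log2 difference 3.21 ± 0.23, SE, edgeR adjusted p = 5.58e-06). Of 17 genes of epithelial-mesenchymal transition, 3 were higher in tumors and 4 in scaffolds, against 11.3% and 10% of all genes. The median log2 difference of the list was -0.53. Because the list mixes mesenchymal genes with epithelial ones such as Cdh1, Itgb4, Grhl2 and Esrp1, these figures give no direction of the transition. Higher in tumors were Snai1, Cdh1 and Itgb4. Those higher in scaffolds were Zeb1, Zeb2, Tgfb2 and Tgfbr1, a count that was 2 without tumor 2. Snai1, a repressor of E-cadherin, was at 51.8, 45.7 and 50.2 CPM in tumors and 8.56, 12.4 and 10.6 CPM in scaffolds (log2 difference 2.09 ± 0.20, SE, edgeR adjusted p = 2.82e-05), and Cdh1, which encodes E-cadherin, at 59.8, 71.7 and 62.1 CPM against 22.8, 20.8 and 11 CPM (log2 difference 1.68 ± 0.25, SE, edgeR adjusted p = 0.00057).

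Milk protein genes were present in the tumors. Of 10 mammary secretory markers, 7 were higher in tumors and none in scaffolds. Csn2, beta-casein, was at 24.5, 94.9 and 191 CPM in tumors and 0.245, 3.73 and 0.466 CPM in scaffolds (log2 difference 6.17 ± 0.90, SE, edgeR adjusted p = 0.000479), and Csn3, kappa-casein, at 16.3, 46.3 and 42.6 CPM against 5.5, 3.73 and 2.8 CPM (log2 difference 2.96 ± 0.41, SE, edgeR adjusted p = 0.000342). Tumor 1 was the lowest for both. Among the genes with the largest difference in level, ribosomal and mitochondrial RNA also stood out. The mitochondrial ribosomal RNA mt-Rnr1 was at 21476, 27351 and 29822 CPM in tumors and 10532, 7389 and 10659 CPM in scaffolds (log2 difference 1.32 ± 0.26, SE, edgeR adjusted p = 0.00332), and the small nucleolar RNA Snord13 at 1297, 629.8 and 2002 CPM against 209, 128 and 184 CPM (log2 difference 2.77 ± 0.37, SE, edgeR adjusted p = 0.000264). The libraries were made for the 3' ends of mRNA, and how these noncoding RNAs came to be counted was not tested. Igfbp4, which binds insulin-like growth factors, was at 1488, 1879.8 and 1976 CPM against 239, 311 and 216 CPM (log2 difference 2.66 ± 0.22, SE, edgeR adjusted p = 1.25e-05), and Mt1, a metallothionein, at 1308, 1815 and 1905 CPM against 594, 615 and 761 CPM (log2 difference 1.21 ± 0.20, SE, edgeR adjusted p = 0.00124). The ribosomal protein genes Rps21, Rpl37 and Rpl37a were higher in tumors, with log2 differences of 1.32 ± 0.25, 1.34 ± 0.32 and 1.10 ± 0.27 (SE; edgeR adjusted p = 0.00227, 0.00843 and 0.0102). In control scaffolds mt-Rnr1 was at 18393 to 25748 CPM, Rps21 at 2276 to 2611 CPM, Rpl37 at 2502 to 2924 CPM and Rpl37a at 1555 to 1987 CPM, all above the 4T07 scaffolds. The ribosomal protein genes have processed copies elsewhere in the genome, so that their counts are uncertain, and the call of Rpl37a was lost without tumor 2 or scaffold 3.

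The same contrast in the other lines shared no library with this one. In a fit of 18 libraries, 14.5% of 23778 genes were higher in tumors and 17.9% in scaffolds for 67NR, and 11.6% and 12.1% for 4T1. Of the 2273 genes higher in 4T07 tumors, 1418 (62.4%) were also called higher in 4T1 tumors, which is 53.8% of the calls of 4T1 among the genes tested here, and 1069 (47%) in 67NR tumors, 34.1% of its calls. Of the 2028 genes higher in 4T07 scaffolds, 1446 (71.3%) were called in 4T1, 51.3% of its calls, and 1357 (66.9%) in 67NR, 32.7% of its calls. In the giant cell list, 13 of 13 genes were higher in scaffolds for 67NR and 11 for 4T1.

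Differences between the lines were tested with an interaction term, the log2 of tumor over scaffold in 4T07 minus that in another line. Against 67NR, 2348 genes (9.87%) had a larger and 1820 (7.65%) a smaller value in 4T07, and against 4T1, 376 (1.58%) a larger and 398 (1.67%) a smaller value. Without the first 4T1 tumor, 243 were larger than in 4T1. Hypoxia genes were larger than in 67NR in 15 of 18 cases and smaller in 1, and none differed from 4T1. Interferon-stimulated genes were larger than in 67NR in 17 and smaller in 3 of 36, and larger than in 4T1 in 10 and smaller in none. Mitotic genes were smaller than in 67NR in 10 of 30 and DNA replication genes in 17 of 28, with none larger. These 2 lists were high in 4T07 scaffold 1. It summed to 1986 CPM for mitotic genes, against 737 and 628 CPM in 4T07 scaffolds 2 and 3. For replication genes the sums were 1291, 594 and 612 CPM. How far the 2 counts rest on that library is not given here. Simple epithelial markers were smaller than in 4T1 in 9 of 11.

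Single genes are given next, of which Slpi, Arg1 and Gpnmb are in none of the lists just named. Iigp1 had 81.9 ± 21.5 CPM (SD, n = 3) in 67NR tumors and 171 ± 106 CPM in 4T1 tumors, and its difference was larger in 4T07 than in either (4T07 minus 67NR 3.21 ± 0.49, SE, edgeR adjusted p = 4.56e-05; 4T07 minus 4T1 2.11 ± 0.48, SE, edgeR adjusted p = 0.0123). Slpi, at a mean of 88.4 ± 21.8 CPM in tumors of 67NR and of 209 ± 39 CPM in those of 4T1, was larger in 4T07 than in both (4T07 minus 67NR 3.28 ± 0.35, SE, edgeR adjusted p = 4.12e-07; 4T07 minus 4T1 2.93 ± 0.34, SE, edgeR adjusted p = 1.31e-05). Arg1 was at a mean of 4.26 ± 1.46 CPM in tumors of 67NR and of 604 ± 79.4 CPM in those of 4T1 (4T07 minus 67NR 5.67 ± 0.69, SE, edgeR adjusted p = 2.65e-06), and a difference from 4T1 was not detected (4T07 minus 4T1 -1.13 ± 0.57, SE, edgeR adjusted p = 0.368). Gpnmb, the leading scaffold gene, was at a mean of 31.8 ± 13.5 CPM in tumors of 67NR and of 22.7 ± 5.21 CPM in those of 4T1, against 321 ± 40.3 CPM in 4T07 tumors, so that its fall from scaffold to tumor was smaller in 4T07 (4T07 minus 67NR 2.56 ± 0.35, SE, edgeR adjusted p = 1.07e-05; 4T07 minus 4T1 3.69 ± 0.35, SE, edgeR adjusted p = 8.88e-07). Krt8 was at a mean of 1.38 ± 0.557 CPM in tumors of 67NR and of 148 ± 5.42 CPM in those of 4T1 and lay between the lines in 4T07 (4T07 minus 67NR 4.32 ± 0.61, SE, edgeR adjusted p = 2.14e-05; 4T07 minus 4T1 -3.47 ± 0.60, SE, edgeR adjusted p = 0.00111).

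By size of the difference from 67NR, Ptgs2, the inducible cyclooxygenase, was at 115, 176 and 93.1 CPM in 4T07 tumors, 0.835 ± 0.296 CPM in 67NR tumors and 27.3 ± 5.91 CPM in 67NR scaffolds (4T07 minus 67NR 9.59 ± 0.83, SE, edgeR adjusted p = 3.76e-08). Cxcl2, a neutrophil chemokine, did not pass in 4T07 itself, at 20.3, 42.1 and 48.8 CPM in tumors and 21.4, 50.1 and 54.5 CPM in scaffolds, and was at 0.726 ± 0.818 CPM in 67NR tumors and 471 ± 58.8 CPM in 67NR scaffolds (4T07 minus 67NR 8.89 ± 1.04, SE, edgeR adjusted p = 1.81e-06). Its scaffold level varied widely, at 78.9, 697 and 53.4 CPM in control scaffolds and 72.2, 574 and 106 CPM in 4T1 scaffolds. The second library of each was above every 67NR scaffold. Rhox5, an X-linked homeobox gene of germline and cancer cells, was at 798 ± 127 CPM in 67NR tumors and 19.3, 5.62 and 2.54 CPM in 4T07 tumors, with the 4T07 scaffolds at 47.5, 5.11 and 1.4 CPM (4T07 minus 67NR -12.84 ± 1.45, SE, edgeR adjusted p = 1.1e-06). By size of the difference from 4T1, H19, an imprinted noncoding RNA, was at 1535 ± 147 CPM in 4T1 tumors and 6.82, 5.62 and 7.34 CPM in 4T07 tumors (4T07 minus 4T1 -7.45 ± 0.47, SE, edgeR adjusted p = 1.92e-09). Fermt1, an integrin activator of epithelium, was at 114 ± 11.4 CPM in 4T1 tumors and 2.01, 1.81 and 1.98 CPM in 4T07 tumors (4T07 minus 4T1 -6.46 ± 0.58, SE, edgeR adjusted p = 3.87e-07). Sncg, gamma-synuclein, was at 57.2, 53.5 and 62.9 CPM in 4T07 tumors and 11.4, 9.83 and 11.8 CPM in scaffolds, against 3.77 ± 3.84 CPM in 4T1 tumors (4T07 minus 4T1 4.94 ± 0.50, SE, edgeR adjusted p = 2.9e-06).

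**Figure D5:**
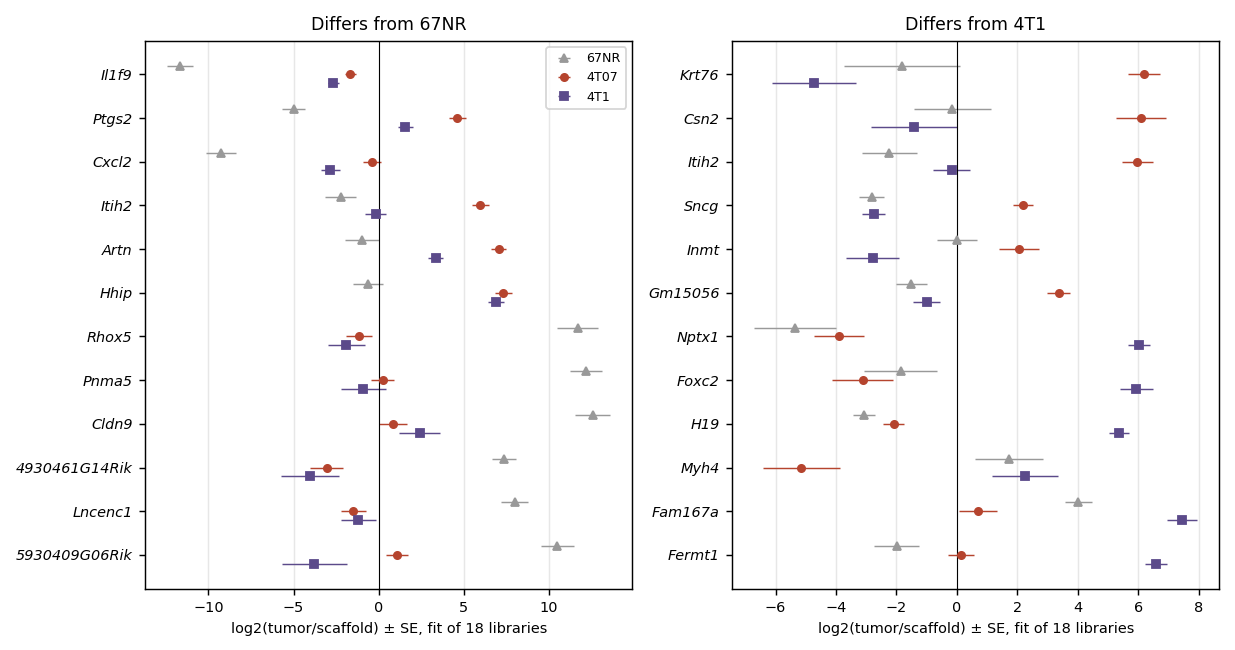
log2 of tumor over scaffold with its SE in 67NR (gray triangles), 4T07 (red circles) and 4T1 (purple squares), from the fit of 18 libraries, for the 12 genes with the largest difference of 4T07 from 67NR (left) and from 4T1 (right). Rhox5, Pnma5 and Cldn9 lie far to the right in 67NR alone, and H19 and Fermt1 in 4T1.

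Transcripts of the tumors in scaffolds were sought with genes that had 20 CPM or more in each 4T07 tumor and no count in any control lung or spleen, which left Csn2, Syt8 and Gm36696. Their counts summed to 376, 856 and 935 in the tumors. In the 4T07 scaffolds they summed to 9, 19 and 6 counts, in the control scaffolds to 1, 2 and 43, in the 67NR scaffolds to 1, 1 and 23 and in the 4T1 scaffolds to 5, 15 and 3. The highest sum was in a control scaffold and came from Csn2 alone. Syt8 had 4, 0 and 3 counts in the 4T07 scaffolds, 1, 1 and 0 in the control scaffolds and at most 1 in any scaffold of the other lines. Gm36696 had 3, 0 and 0 counts in the 4T07 scaffolds, none in the control scaffolds and 1 in a single 67NR scaffold. No test was run on these counts. Pitx1, absent from the control scaffolds, had 1 count over the 4T07 scaffolds. Of the 9 genes of the scaffold signature, 3 were higher in scaffolds than in tumors and none was higher in tumors. The study chose these genes to set 4T1 scaffolds of this series apart from the other scaffolds, and narrowed them by PCR. No direction is drawn from them here.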

How the data were processed

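RNA of whole tissue was sequenced as 3' mRNA libraries (QuantSeq FWD with unique molecular identifiers, UMIs). The deposited table holds raw counts of reads per gene, made by the authors with Trim Galore 0.5.0, STAR 2.6.0 and featureCounts, per the submitters' processing notes. The genome build, annotation and collapsing of UMIs are not given in the sources used here. The 120 lines that repeat a symbol were summed with its first line, and libraries were matched to samples by their labels. Genes with more than 10 counts over the 6 libraries were tested with the quasi-likelihood test of edgeR 4.0.16 in R 4.3.3 (TMM scaling, Benjamini-Hochberg adjustment, unpaired), and the threshold was an adjusted p under 0.05 with a fold over 2. CPM values use library totals. The lines were compared in 1 fit of 18 libraries with interaction terms. Where a group had no count, 3 counts over the group gave the bound of a fold, and with 1 to 3 counts the ratio of pooled levels is given with its exact 95% interval, which covers counting error only. Alternatives were DESeq2 1.42.0, other scaling and filters, and leaving out each library. The scripts were tested on simulated data.

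Named genes were the 12 with the largest log2 difference in each direction at 20 CPM or more without overlap, the 10 with the largest difference in CPM, the 6 farthest from each other line, and members of lists named for their role, picked with their values known. The comparison, the lists and these rules were chosen with earlier results of these data known. The study gives 3 mice per condition for these data. Some genes are not reported here.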

Additional observations from a re-analysis of the deposited data

Results flagged for a closer look

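The log2 difference of tumor over scaffold was compared between the lines with an interaction term in edgeR's quasi-likelihood test. It was larger in 4T07 than in 67NR in 2348 genes and smaller in 1820, and larger than in 4T1 in 376 genes and smaller in 398. The values that follow are log2 differences in 4T07 minus those in the other line, for genes at 20 CPM or more in at least 1 of the 4 groups.

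The genes farthest above 67NR were Il1f9 9.99, Ptgs2 9.59, Cxcl2 8.89, Itih2 8.21, Artn 8.04 and Hhip 7.95. Those farthest below 67NR were Rhox5 -12.84, Pnma5 -11.94, Cldn9 -11.72, 4930461G14Rik -10.41, Lncenc1 -9.49 and 5930409G06Rik -9.42. Those farthest above 4T1 were Krt76 10.93, Csn2 7.51, Itih2 6.14, Sncg 4.94, Inmt 4.85 and Gm15056 4.37. Those farthest below 4T1 were Nptx1 -9.93, Foxc2 -9.05, H19 -7.45, Myh4 -7.40, Fam167a -6.75 and Fermt1 -6.46. Groups without any count enter some of these values, such as Il1f9 in 67NR tumors and Krt76 in 4T1 tumors, so their size depends on the prior count of the fit and is no bound.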

How the results depend on the processing

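The counts over all genes past the threshold stayed within 1.5 times the given value under the alternatives run (DESeq2, 3 other scalings, other filters, thinned counts, wider fits and each library left out), except where stated here. For the 106 counts of list members, 50 values under these alternatives were more than 1.5 times the given count, or above a given count of 0, and 67 were lower by as much. With at least 10 counts in every library, fewer genes were tested, and 1306 were higher in tumors and 1241 in scaffolds, 1113 were larger and 1126 smaller than in 67NR, and 222 were smaller than in 4T1. Leaving out each library gave 1824 to 2363 genes higher in tumors and 1618 to 2135 higher in scaffolds, 1883 to 2419 larger and 1511 to 1839 smaller than in 67NR, and 243 to 360 larger and 289 to 465 smaller than in 4T1. The lowest of the larger set, 243, came without the first 4T1 tumor, and the cause was not tested. DESeq2 called 1982 genes higher in tumors and 1828 higher in scaffolds.

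Of 135 genes described in the 4T07 contrast, Mki67 and Rhox5 turned direction. Mki67 ran from a log2 difference of -0.19 without scaffold 3, and -0.14 without scaffold 2, to 1.46 without scaffold 1. Rhox5 ran from -2.215 without tumor 1 to 1.345 without scaffold 1. Library depth of 3543303 to 8175380 counts limits genes of a few CPM. No paired analysis was possible because the labels give each library its own running number, and no number is shared by a tumor and a scaffold.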

Other observations

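Genes of the 67NR tumors were found in mice with tumors of the other lines, at levels below those of the 67NR tumors. Rhox5 was at 653, 889.6 and 852 CPM in 67NR tumors, at 0.185, 0.321 and 0.164 CPM in 67NR scaffolds and at 0 in the control scaffolds. The 67NR lungs held 0.192, 0.325 and 0.579 CPM of it, and the 67NR spleens had no count. In the 4T07 mice it was at 47.5, 5.11 and 1.4 CPM in scaffolds, 19.3, 5.62 and 2.54 CPM in tumors, 40.9, 14.9 and 9.33 CPM in lungs and 77.6, 87.8 and 27.8 CPM in spleens. Scaffold 1 was above all tumors. In the 4T1 mice Rhox5 was at 13.7, 1.68 and 1.44 CPM in scaffolds, 2.56, 1.02 and 1.3 CPM in tumors, 4.51, 0.282 and 1.35 CPM in lungs and 0, 0.735 and 1.37 CPM in spleens, so that the first 4T1 scaffold was above 4T07 scaffolds 2 and 3.

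In the 4T1 scaffolds Lncenc1 was at 4.57, 1.31 and 0.359 CPM and Pnma5 at 1.47, 0.559 and 0.359 CPM, against 15.5, 2.36 and 1.09 CPM and 7.46, 0.393 and 0.466 CPM in the 4T07 scaffolds. Pnma5, Lncenc1 and Cldn9 were set beside Rhox5 after their values were seen. As a percent of the 67NR tumor mean, Pnma5 was at 2.06, 0.109 and 0.129 in 4T07 scaffolds, 2.44, 0.751 and 0.0779 in tumors and 11.2, 3.91 and 3.16 in spleens. Lncenc1 was at 7.02, 1.07 and 0.491 percent in scaffolds, 2.72, 0.328 and 0.51 percent in tumors and 15.6, 10.1 and 6.99 percent in spleens. Cldn9 was at 1.91, 0 and 0 percent in scaffolds, 3.43, 0.944 and 0 percent in tumors and 14.1, 7.18 and 4.26 percent in spleens. In each of these genes all 3 spleens were above all 3 tumors. In tumor 1 the shares ran from 2.41 percent for Rhox5 to 3.43 percent for Cldn9, and tumor 1 and scaffold 1 were the highest of their groups in all 4 genes. Why these transcripts were present was not tested.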
